A study of Homo sapiens with 20 samples.

Results

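The genes described here are 10 members of the IL6 cytokine family and of the STAT3 pathway it signals through, out of 18417 genes measured. They are the ligands IL6, LIF and IL11, the receptor subunits IL6ST, LIFR and OSMR, the kinases JAK1 and JAK2, the transcription factor STAT3 and the inhibitor SOCS3. They were taken by name from a table that pairs the transcript clusters of the array (sets of probes that report 1 gene) with gene symbols, using clusters with a single symbol. Each of the 10 genes had 1 such cluster, and all 10 lay above the lowest 25% of genes by mean, so a filter on low values removed none of them. The lowest log2 means over the arrays were 5.63 for LIF, 5.87 for IL6, 5.93 for JAK2 and 6.13 for SOCS3. The array medians over all genes ran from 5.71 to 5.94, and no value for background is given.

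Cells of MDA-MB-231, an established human breast cancer line of basal, triple-negative type, were treated with 36 µM cisplatin (Cis), with 10 µM ammonium tetrathiomolybdate (TM) or with both drugs (Cis/TM) and collected after 12 h or 24 h. Cisplatin forms platinum crosslinks in DNA, and TM is a chelator of copper. Gene expression was measured on 20 Affymetrix Human Gene 1.0 ST arrays, 2 for TM 12 h and 3 for each of the 6 other groups (Control, TM at 24 h, and Cis and Cis/TM at each time), and the replicates are called A, B and C. Groups are named by drug and time, as in Cis 12 h. Control cells received vehicle at either time according to the methods, but the deposited design calls the 3 control samples untreated and their labels give no time, so the same 3 arrays stand against every treatment. The wells were run in triplicate, and no source says that they were separate cultures, so p-values may reflect technical spread only. The methods name an RNeasy kit for RNA isolation and the labels name Trizol. On every array, 8 genes that mark this line, VIM, CD44 and AXL among them, averaged from 9.74 to 10.18 on the log2 scale. Of the 8 luminal genes, PGR, CDH1, ESR1 and ERBB3 had medians of 3.57, 3.74, 4.01 and 5.10. GATA3, FOXA1, KRT19 and EPCAM had medians of 6.00, 6.35, 6.52 and 8.33. The medians of the leukocyte genes ran from 3.02 for PTPRC to 9.26 for CD68. Array means over the 8 luminal genes lay between 5.24 and 5.59 and those over the 7 leukocyte genes measured between 4.47 and 4.80.

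Cytokines of the IL6 family share the receptor subunit IL6ST, which pairs with itself or with LIFR or OSMR once a ligand has bound. JAK1 and JAK2 sit on the receptor tails and phosphorylate STAT3, which then moves to the nucleus and switches on target genes. SOCS3 is 1 of these targets and shuts the receptor complex down, and several basal breast cancer lines are known to secrete IL6 and LIF and to respond to them. The arrays measured mRNA alone, not the secreted ligands and not phosphorylated STAT3.

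Cisplatin and TM were compared with Control to see which of these genes responded to each drug. A gene was called up or down at an adjusted p under 0.05 (limma, Benjamini-Hochberg over the 18417 genes) with a fold change over 1.5, and "rose" and "fell" are used for called genes. In Cis 12 h, 4 of the 10 genes were called, with IL6 and IL11 up and OSMR and JAK1 down, beside 25.5% of all genes called in that comparison. Cis 24 h had 2 of 10, IL11 and STAT3, both up, beside 16.4% of all genes. TM 12 h had 1 of 10, STAT3, which was up, beside 12.1% of all genes. After 24 h of TM, IL11 was up and LIFR down, beside 7.72%. Cis/TM 12 h had 2 of 10, IL11 up and OSMR down, beside 23.8% of all genes, and Cis/TM 24 h had 1, IL11 up, beside 7.02%. LIF, IL6ST, JAK2 and SOCS3 were called against Control in none of the 6 comparisons.

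Counts this small stand near the background in several comparisons, so the results below are those of single genes. The arrays of the treated group and of Control did not overlap for 7 of the 10 genes in Cis 12 h, beside 47.4% of all genes, and for 3 of 10 in Cis 24 h, beside 45.8%. With TM the groups did not overlap for 7 of 10 genes at 12 h, beside 50% of all genes, and for 4 of 10 at 24 h, beside 29%. With both drugs these numbers were 6 of 10 at 12 h, beside 52.6%, and 2 of 10 at 24 h, beside 31.4%. The median log2 fold change of the 10 genes was −0.15 in Cis 12 h against −0.01 for all genes, and in the 5 other comparisons with Control it lay between −0.03 and 0.05, against −0.046 to −0.0022 for all genes. The arrays also differ in overall scale. Centring each array on its median moved the log2 fold changes of all genes by −0.15 in Cis 12 h and by −0.11 in Cis/TM 12 h. With each of the 3 other scalings tried (median centring, quantile normalization and removal of a trend with level), the 2 up and 2 down of Cis 12 h became 1 up and 4 down, the 1 up and 1 down of Cis/TM 12 h became 1 up and 2 down, and those of TM 24 h became 0 up and 1 down. The 1 up of TM 12 h became 1 up and 1 down with centring and 0 up and 2 down with the other scalings. The calls over all genes moved the same way. In Cis 12 h 57.8% of them were up with the values as deposited, 39.7% with centring, 51.6% with quantile normalization and 49.4% with the trend removed, and in the 5 other comparisons with Control the share up was 64% to 74.3% as deposited and 48.2% to 63.8% with the other scalings.

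**Figure D1:**
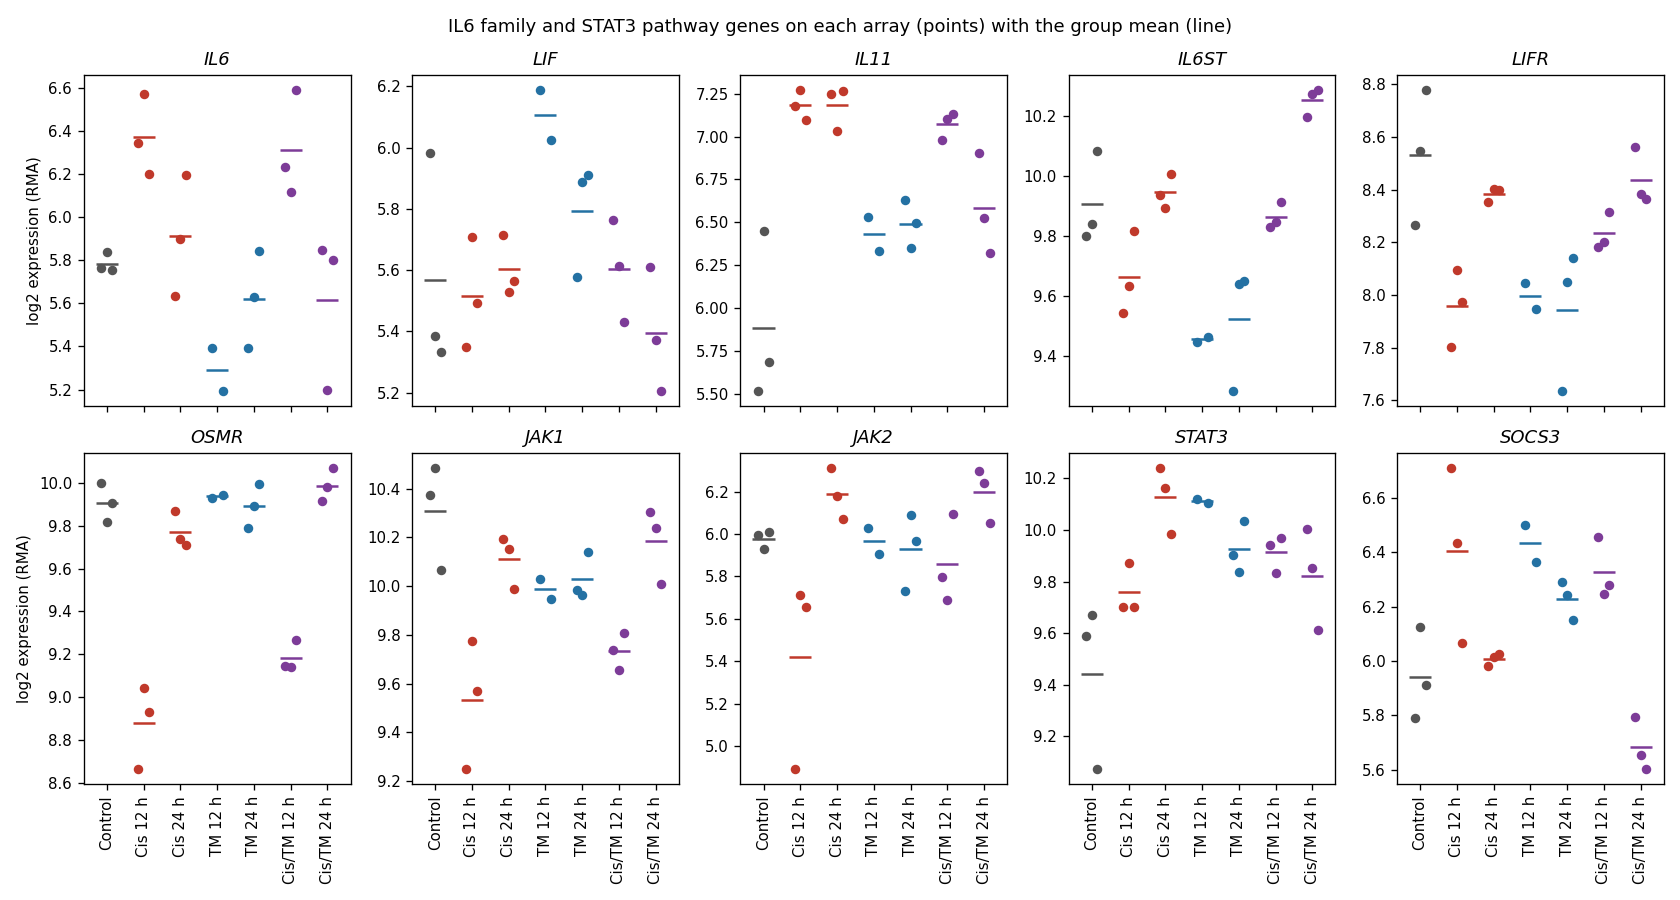
Log2 expression (vertical axis, RMA values, a separate scale for each gene) of the 10 genes on each of the 20 arrays, with 1 point per array and a line at the group mean. IL11 on the Cis 12 h, Cis 24 h and Cis/TM 12 h arrays lies between 6.98 and 7.27, above the control arrays, and OSMR on the Cis 12 h and Cis/TM 12 h arrays lies between 8.67 and 9.27, below all other arrays.

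IL11, a ligand that signals through its own receptor subunit and IL6ST, was called in more of the comparisons with Control than any other of the 10 genes, 5 of 6. On the control arrays its log2 values were 5.52, 6.45 and 5.69. On the Cis 12 h arrays they were 7.18, 7.27 and 7.10, on the Cis 24 h arrays 7.25, 7.03 and 7.26, and on the Cis/TM 12 h arrays 6.98, 7.10 and 7.13. All 9 of these treated arrays were above the highest control array, and control B stood apart above the other controls. IL11 rose by 1.30 on the log2 scale in Cis 12 h (SE 0.18, adjusted p = 6.79e-06), by 1.30 in Cis 24 h (SE 0.18, adjusted p = 1.77e-05) and by 1.19 in Cis/TM 12 h (SE 0.18, adjusted p = 2.3e-05). The fold change was 2.46 in Cis 12 h. These 3 calls held under all 16 alternative settings run for each, with log2 fold changes from 0.92 to 1.58. Not all of the settings, here and for the genes below, were able to remove a call. Dropping the minimum fold or the adjustment of p only loosened the rule. Changing the choice of clusters or leaving out low genes did not alter the log2 values of the 10 genes.

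With TM the IL11 values were lower. They were 6.53 and 6.33 on the TM 12 h arrays, 6.63, 6.35 and 6.50 on the TM 24 h arrays, and 6.91, 6.52 and 6.32 on the Cis/TM 24 h arrays, and in each of these groups at least 1 array fell below control B. IL11 was called up in TM 24 h (log2 0.61, SE 0.18, adjusted p = 0.022) and in Cis/TM 24 h (log2 0.70, SE 0.18, adjusted p = 0.0105), and in TM 12 h the difference was 0.55 (adjusted p = 0.0537). The call in TM 24 h was lost under 8 of 16 alternatives, among them median centring (0.53) and leaving out control A (0.42), control C (0.51), TM 24 h A (0.54) or TM 24 h C (adjusted p = 0.0549). The call in Cis/TM 24 h was lost without control A (0.52) and without Cis/TM 24 h A (0.54), with the trend with level removed (0.58) and when only the groups compared were fitted (adjusted p = 0.119). Without control B IL11 would be called in TM 12 h (0.83, adjusted p = 0.000888). The difference between cisplatin and TM was itself called at both times, by 0.75 at 12 h (SE 0.20, adjusted p = 0.00773, beside 17.2% of all genes called) and by 0.69 at 24 h (SE 0.18, adjusted p = 0.0103, beside 8.55%). The call at 12 h was lost without TM 12 h B (adjusted p = 0.0953) and that at 24 h without TM 24 h B (adjusted p = 0.0505), with quantile normalization (0.57) and with the trend removed (0.58).

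In order of level, the mean of IL11 was 7.18 at each time of cisplatin, 7.07 after 12 h and 6.58 after 24 h of both drugs, 6.49 after 24 h and 6.43 after 12 h of TM, and 5.88 in Control, with SDs from 0.08 to 0.50. The first 3 of these did not differ beyond their spread, nor did Cis/TM 24 h and both TM groups. IL11 was higher in Cis/TM 12 h than in TM 12 h by 0.64 (SE 0.20, adjusted p = 0.0265, beside 13.6% of all genes called). That call held under only 9 of 15 alternatives, and was lost with quantile normalization (0.57) and with the trend removed (0.55), among others. The genes whose pattern over the 20 arrays was most like that of IL11 were CHMP4B (Pearson r = 0.93, Spearman rho = 0.88) and UFD1 (r = 0.93, rho = 0.81). These are descriptions across arrays that share the 7 treatments.

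IL6, the founding ligand of the family, differed between the 12 h groups. Its log2 values were 5.76, 5.84 and 5.75 on the control arrays, 6.34, 6.57 and 6.20 on the Cis 12 h arrays, and 6.23, 6.12 and 6.59 on the Cis/TM 12 h arrays. On the TM 12 h arrays they were 5.39 and 5.19. Every array with cisplatin at 12 h was above, and both arrays with TM alone were below, the control arrays. IL6 rose by 0.59 in Cis 12 h (SE 0.18, adjusted p = 0.00971), a fold change of 1.501 against the minimum of 1.5, and the difference was 0.53 in Cis/TM 12 h (adjusted p = 0.0187) and −0.49 in TM 12 h (adjusted p = 0.0738). The call in Cis 12 h was lost with median centring (0.43, adjusted p = 0.0534), quantile normalization (0.44) and removal of the trend with level (0.39), and without control A (0.57), control C (0.57) or Cis 12 h B (0.49).

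The gap between cisplatin and TM at 12 h was wider. IL6 was higher by 1.08 in Cis 12 h than in TM 12 h (SE 0.20, adjusted p = 0.000267), and by 1.02 in Cis/TM 12 h than in TM 12 h (SE 0.20, adjusted p = 0.000612, beside 13.6% of all genes called), and these 2 calls held under all alternatives run. At 24 h the IL6 values were 5.63, 5.90 and 6.20 with cisplatin, 5.39, 5.63 and 5.84 with TM and 5.84, 5.20 and 5.80 with both drugs, and all 3 groups overlapped with Control. From 12 h to 24 h of Cis/TM, IL6 fell by 0.70 on the log2 scale (SE 0.18, adjusted p = 0.00491, beside 13.7% of all genes called), and that call was lost without Cis/TM 12 h C (−0.56) or Cis/TM 24 h B (−0.49). In cisplatin alone the difference over time was −0.46 (adjusted p = 0.0705), with all Cis 24 h arrays below all Cis 12 h arrays.

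LIF, which signals through LIFR paired with IL6ST, was not called against Control. Its log2 values on the control arrays were 5.98, 5.39 and 5.33, and on the TM 12 h arrays 6.19 and 6.03. Arrays with cisplatin, alone or with TM, lay between 5.20 and 5.76 and TM 24 h arrays between 5.58 and 5.91, inside or below the range of Control. The difference in TM 12 h was 0.54 (SE 0.18, adjusted p = 0.0305), with both arrays above Control, and LIF differed by −0.59 between Cis 12 h and TM 12 h (SE 0.18, adjusted p = 0.0158). That last call was lost without Cis 12 h A (−0.51), Cis 12 h C (−0.58) or TM 12 h A (−0.51), and with the replicate letter as a block (−0.55).

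The promoters of the ligands that rose with cisplatin are shown because the transcription factors of the IL6 regulator list described further on act on sites of this kind. Each sequence is the 250 bases before a RefSeq transcription start (GRCh38.p14), read 5′ to 3′ on the strand of the gene, with motif matches in capitals. IL6 lies on chromosome 7 on the plus strand and holds 1 NF-kB-like match (GGNNTTTCC, 72 to 64 bases before the start), and IL11 lies on chromosome 19 on the minus strand and holds 1 AP-1 match (TGANTCA, 96 to 90 bases before the start).
IL6, chr7:22726950-22727199: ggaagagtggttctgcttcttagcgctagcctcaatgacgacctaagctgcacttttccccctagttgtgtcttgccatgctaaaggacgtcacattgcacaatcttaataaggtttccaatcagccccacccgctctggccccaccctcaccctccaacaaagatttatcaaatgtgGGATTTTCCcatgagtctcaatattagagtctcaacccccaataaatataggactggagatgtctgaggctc
IL11, chr19:55370464-55370713: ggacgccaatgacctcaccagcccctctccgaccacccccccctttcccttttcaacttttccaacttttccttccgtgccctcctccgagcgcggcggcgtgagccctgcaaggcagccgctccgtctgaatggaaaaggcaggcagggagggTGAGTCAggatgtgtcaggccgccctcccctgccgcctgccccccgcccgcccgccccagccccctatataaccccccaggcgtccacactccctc
On both strands and in windows of the same length, GGNNTTTCC matched in 5.48% and TGANTCA in 6.57% of 35116 RefSeq promoters. Among the 17 promoter windows of the 9 member genes in that table, GGNNTTTCC and TGANTCA each matched in 1, close to these shares. The STAT site core TTCNNNGAA, found in 6.57% of all promoters, matched in 2 of the 17, both of LIFR. The CRE sequence TGACGTCA, found in 1.65%, matched in none. Whether any of these sites takes part in the changes was not tested. None of these motifs overlapped another in the windows printed. LIF was not among the genes in the table.

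Among the receptor subunits, OSMR, which pairs with IL6ST to bind oncostatin M, had the largest fall of the 10 genes. Control arrays had log2 values of 10.0002, 9.82 and 9.91, Cis 12 h arrays 8.67, 9.04 and 8.93, and Cis/TM 12 h arrays 9.15, 9.14 and 9.27. All 6 arrays of 12 h with cisplatin were below every other array. OSMR fell by 1.03 on the log2 scale in Cis 12 h (SE 0.10, adjusted p = 9.48e-08) and by 0.72 in Cis/TM 12 h (SE 0.10, adjusted p = 9.45e-06), fold changes of 2.04 and 1.65. TM left OSMR close to Control, with 9.93 and 9.94 at 12 h (log2 difference 0.03, 95% interval −0.21 to 0.27) and 9.79, 9.89 and 9.99 at 24 h.

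The fall of OSMR was not seen at 24 h. The values were 9.87, 9.74 and 9.71 on the Cis 24 h arrays and 9.91, 9.98 and 10.07 on the Cis/TM 24 h arrays, and both groups overlapped with Control. Between 12 h and 24 h OSMR rose by 0.89 with cisplatin (SE 0.10, adjusted p = 3.51e-06, beside 10.6% of all genes called) and by 0.80 with both drugs (SE 0.10, adjusted p = 8.15e-06). The 4 calls of OSMR against Control and over time, and those against TM 12 h (−1.06 in Cis 12 h, adjusted p = 6.48e-07, and −0.75 in Cis/TM 12 h, adjusted p = 5.57e-05), held under all alternatives run. The 250 bases before its start, on the plus strand of chromosome 5, are shown as the promoter of the gene that fell the most, and held none of the 4 motifs.
OSMR, chr5:38845762-38846011: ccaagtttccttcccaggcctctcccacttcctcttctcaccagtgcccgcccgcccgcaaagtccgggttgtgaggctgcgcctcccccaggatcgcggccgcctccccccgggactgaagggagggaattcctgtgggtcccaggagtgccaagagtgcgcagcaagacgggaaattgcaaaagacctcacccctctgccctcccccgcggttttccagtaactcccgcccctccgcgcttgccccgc

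**Figure D2:**
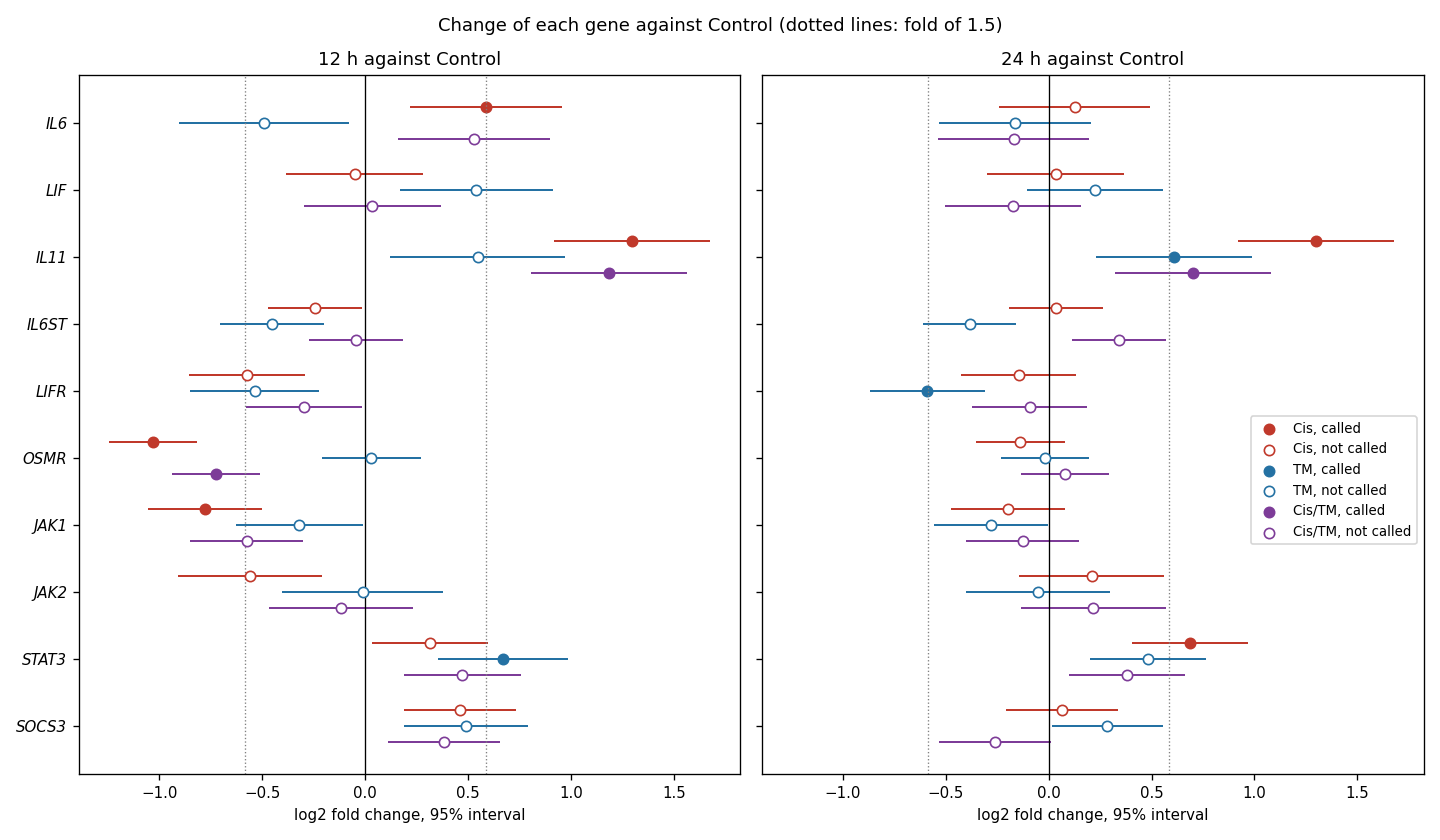
Log2 fold change against Control (horizontal axis) of each gene for Cis, TM and Cis/TM at 12 h (left) and 24 h (right), with 95% intervals from limma, filled points for called genes and dotted lines at a fold of 1.5. OSMR and JAK1 lie farthest to the left at 12 h with cisplatin, and IL11 with cisplatin lies farthest to the right at both times. With TM at 12 h STAT3 (0.67) lies to the right of IL11 (0.55).

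LIFR, the LIF receptor, was lowest with TM and with cisplatin at 12 h. Its log2 values were 8.27, 8.55 and 8.78 on the control arrays, 7.63, 8.05 and 8.14 on the TM 24 h arrays, 8.04 and 7.95 on the TM 12 h arrays and 7.80, 8.10 and 7.97 on the Cis 12 h arrays. All 8 of these treated arrays were below the lowest control array. LIFR fell by 0.59 on the log2 scale in TM 24 h (SE 0.13, adjusted p = 0.00403), and the differences were −0.57 in Cis 12 h (SE 0.13, adjusted p = 0.00146) and −0.54 in TM 12 h (SE 0.15, adjusted p = 0.013), both just under the minimum fold change. Median centring, quantile normalization and removal of the trend with level each made the Cis 12 h difference (−0.64 to −0.73) and the TM 12 h difference (−0.59 to −0.73) calls. The call in TM 24 h was lost without control B (−0.58), control C (−0.46) or TM 24 h A (−0.44), and when only the groups compared were fitted (adjusted p = 0.0961).

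IL6ST, the shared signal-transducing subunit, lay on opposite sides of Control with TM alone and with both drugs at 24 h. Log2 values of IL6ST were 9.80, 9.84 and 10.08 on the control arrays, 9.28, 9.64 and 9.65 on the TM 24 h arrays, and 10.19, 10.27 and 10.29 on the Cis/TM 24 h arrays. All TM 24 h arrays were below Control and all Cis/TM 24 h arrays above it. Neither difference from Control passed the minimum fold (−0.38, adjusted p = 0.0166, and 0.34, adjusted p = 0.0321), while the difference between these groups did, by 0.73 (SE 0.11, adjusted p = 0.000127, beside 6.28% of all genes called), and held under all 16 alternatives. At 12 h the TM arrays, 9.45 and 9.46, were again below Control (−0.45, adjusted p = 0.0103), and quantile normalization or removal of the trend with level made that difference a call (−0.59 in each).

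JAK1, a kinase that docks on IL6ST, fell with cisplatin at 12 h. Control arrays read 10.37, 10.49 and 10.07 on the log2 scale, Cis 12 h arrays 9.25, 9.78 and 9.57, and Cis/TM 12 h arrays 9.74, 9.65 and 9.81. All 6 arrays of 12 h with cisplatin were below every other array. JAK1 fell by 0.78 on the log2 scale in Cis 12 h (SE 0.13, adjusted p = 6.21e-05), a call that held under all 16 alternatives, and the difference was −0.58 in Cis/TM 12 h (SE 0.13, adjusted p = 0.00131), which each of the 3 other scalings made a call (−0.66 to −0.69). At 24 h the values were 10.19, 10.15 and 9.99 with cisplatin and 10.30, 10.24 and 10.01 with both drugs, overlapping with Control, and the difference between Cis 24 h and Cis 12 h was 0.58 (adjusted p = 0.00267), just short of the minimum fold, and a call with median centring (0.64).

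JAK2, a related kinase, had its lowest mean in Cis 12 h too, with more spread. The control arrays had log2 values of 6.00, 5.93 and 6.01, and the Cis 12 h arrays had 4.89, 5.71 and 5.66, all below Control, with replicate A far below the other 2. The difference in Cis 12 h was −0.56 (SE 0.17, adjusted p = 0.00938), a call with median centring (−0.71), quantile normalization (−0.76) or removal of the trend with level (−0.76). Without Cis 12 h A it was −0.30 (adjusted p = 0.0722). JAK2 rose by 0.77 from Cis 12 h to Cis 24 h (SE 0.17, adjusted p = 0.0019), where the arrays read 6.31, 6.18 and 6.07. Without that array the rise was 0.50 and was not called.

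STAT3, the transcription factor of the pathway, had a higher mean than Control in all 6 treated groups, with differences from 0.32 to 0.69. For STAT3 the log2 values were 9.59, 9.67 and 9.07 on the control arrays, 10.24, 10.16 and 9.99 on the Cis 24 h arrays and 10.12 and 10.10 on the TM 12 h arrays. All of the latter 5 arrays were above Control, and control C was well below the other controls. STAT3 rose by 0.69 in Cis 24 h (SE 0.14, adjusted p = 0.000554) and by 0.67 in TM 12 h (SE 0.15, adjusted p = 0.00308). Without control C these differences were 0.50 and 0.48 and were not called, and neither was called after quantile normalization (0.58 and 0.54) or removal of the trend with level (0.56 and 0.53). On the other treated arrays the values ran from 9.61 to 10.04. The difference was 0.48 after 24 h of TM (adjusted p = 0.0157) and 0.32 after 12 h of cisplatin (adjusted p = 0.0626), and with both drugs it was 0.47 at 12 h (adjusted p = 0.00743) and 0.38 at 24 h (adjusted p = 0.0548). Leaving out control C lowered these 4 differences to 0.30, 0.13, 0.29 and 0.20, in the same order. In TM 12 h the call was also lost when only the groups compared were fitted (adjusted p = 0.0742). All 6 comparisons share the control arrays.

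SOCS3, the feedback inhibitor, was not called against Control but changed with time under both drugs. Its log2 values were 5.79, 6.12 and 5.91 on the control arrays, 6.45, 6.25 and 6.28 on the Cis/TM 12 h arrays and 5.79, 5.66 and 5.60 on the Cis/TM 24 h arrays. The Cis/TM 12 h arrays were all above Control, and of the Cis/TM 24 h arrays only A, at the level of control A, reached into its range. SOCS3 fell by 0.64 from 12 h to 24 h of Cis/TM (SE 0.13, adjusted p = 0.000765). Under the 3 other scalings the fall was 0.52 to 0.56 and was under the minimum fold, as it was without Cis/TM 12 h A (−0.58). The SOCS3 difference from 12 h to 24 h was −0.395 with cisplatin alone (adjusted p = 0.0329), also under the minimum fold. With TM alone it was −0.20 (adjusted p = 0.907). For each single drug, all 24 h arrays were below all 12 h arrays. The other 12 h groups also had higher means than Control, by 0.46 in Cis 12 h (adjusted p = 0.00621, values of 6.71, 6.43 and 6.07) and by 0.49 in TM 12 h (adjusted p = 0.0176, values of 6.50 and 6.36).

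Whether the drug pair acted differently from cisplatin alone was tested next. In Cis/TM 12 h against Cis 12 h limma called none of the 10 genes and none of all genes (0%), with 2 of the 10 and 1732 of all genes at an unadjusted p under 0.05. In Cis/TM 24 h against Cis 24 h it called none of the 10 genes, beside 1.5% of all genes. At an unadjusted p under 0.05 there were 5 of the 10 and 3230 of all genes. The widest of these differences was that of IL11, which was −0.60 (95% interval −0.98 to −0.22, adjusted p = 0.0711) with all Cis/TM 24 h arrays below all Cis 24 h arrays, and which was called without Cis/TM 24 h A (−0.76, adjusted p = 0.036) or when only the 2 groups were fitted (adjusted p = 0.0457). IL6ST differed by 0.31, STAT3 by −0.31, SOCS3 by −0.32 and OSMR by 0.22, with adjusted p-values from 0.126 to 0.28. In TM 24 h against TM 12 h none of the 10 genes was called by limma, beside 0.00543% of all genes. None of the 10 and 1068 of all genes were at an unadjusted p under 0.05.

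The interaction of the drugs sets Cis/TM and Control against the sum of Cis and TM, on the log2 scale at 1 time, and it is 0 where the log2 changes of the single drugs add up in the pair. At 12 h it was called for 2 of the 10 genes, beside 10.3% of all genes, and at 24 h for 5 of 10, beside 16.5%. For both receptor subunits that were low with TM it was above 0. IL6ST departed by 0.65 at 12 h (SE 0.16, adjusted p = 0.0131) and by 0.69 at 24 h (SE 0.15, adjusted p = 0.00312), and LIFR by 0.81 at 12 h (SE 0.20, adjusted p = 0.0121) and by 0.64 at 24 h (SE 0.19, adjusted p = 0.0193). In each case the pair had a higher mean level than TM alone.

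For the ligand IL11, for STAT3 and for SOCS3 it was below 0 at 24 h. IL11 departed by −1.20 (SE 0.26, adjusted p = 0.00219), STAT3 by −0.79 (SE 0.19, adjusted p = 0.00577) and SOCS3 by −0.61 (SE 0.18, adjusted p = 0.0214). The departures of IL11 and STAT3 held under all alternatives run, while that of SOCS3 was lost under the 3 other scalings (−0.43 to −0.47) and without control A (−0.53), TM 24 h A (−0.58) or Cis/TM 24 h C (−0.57). Those of the receptors rested on single arrays in part. IL6ST at 12 h was lost without control C (0.56), TM 12 h A (adjusted p = 0.0618) or TM 12 h B (adjusted p = 0.0533), IL6ST at 24 h without TM 24 h A (0.57), and LIFR at 12 h without TM 12 h B (0.76, adjusted p = 0.0653). LIFR at 24 h was lost without control C (0.52), TM 24 h A (0.49) or Cis/TM 24 h A (0.58), and when only the groups compared were fitted (adjusted p = 0.0505). The control arrays enter this contrast too.

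**Figure D3:**
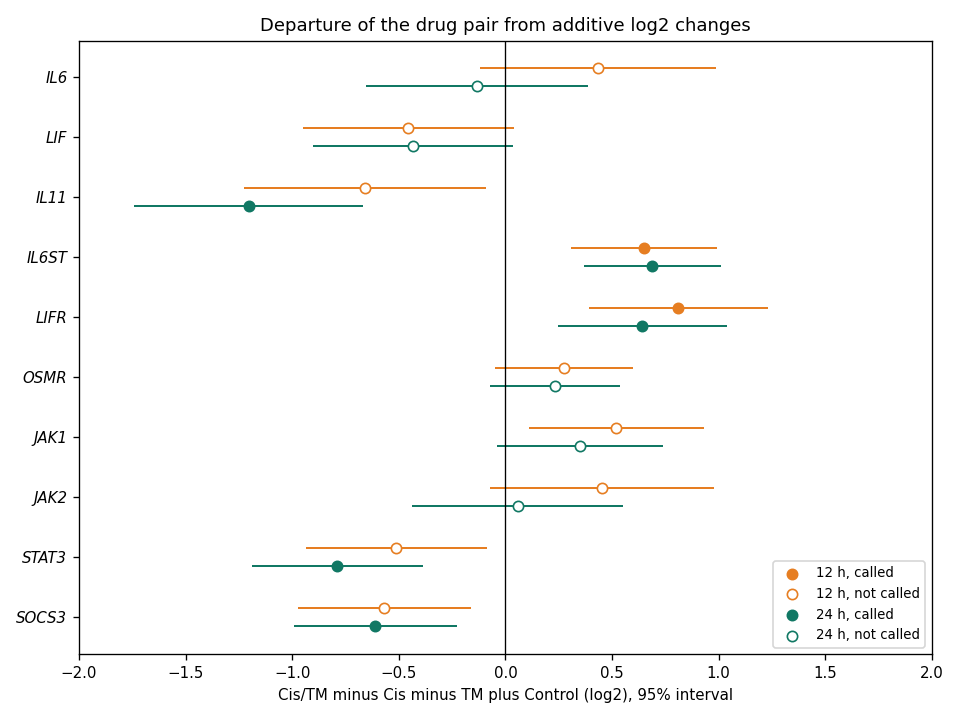
Departure of Cis/TM from additive log2 changes of the single drugs (horizontal axis, log2, with 95% intervals from limma) for each gene at 12 h and 24 h, with filled points for called genes. IL6ST and LIFR lie above 0 at both times, between 0.64 and 0.81, and IL11, STAT3 and SOCS3 lie below 0, at −1.20, −0.79 and −0.61 at 24 h.

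The 10 genes also differ in the length of DNA they span, which the choice of genes did not use. In RefSeq (GRCh38.p14) SOCS3, IL6, IL11 and LIF span 4.15, 4.8, 6.08 and 6.31 kb, whereas IL6ST, STAT3, OSMR, LIFR, JAK2 and JAK1 span 59.9, 75.1, 99.6, 134, 146 and 235 kb. In Cis 12 h the log2 differences of these long genes other than STAT3 ran from −1.03 to −0.24, and both genes that rose were short. Over all genes in Cis 12 h, 27.5% of the 5781 genes that span over 50 kb were called down and 2.46% up, while 2.77% of the 5243 genes under 10 kb were called down and 22.1% up. The median log2 fold change was −0.28 in the long genes and 0.12 in the short ones, and in Cis 24 h it was −0.15 and −0.03. The limits of 10 and 50 kb were chosen after the values had been seen, and the part of gene span in the results for OSMR, JAK1, LIFR, JAK2 and IL6ST was not tested.

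**Figure D4:**
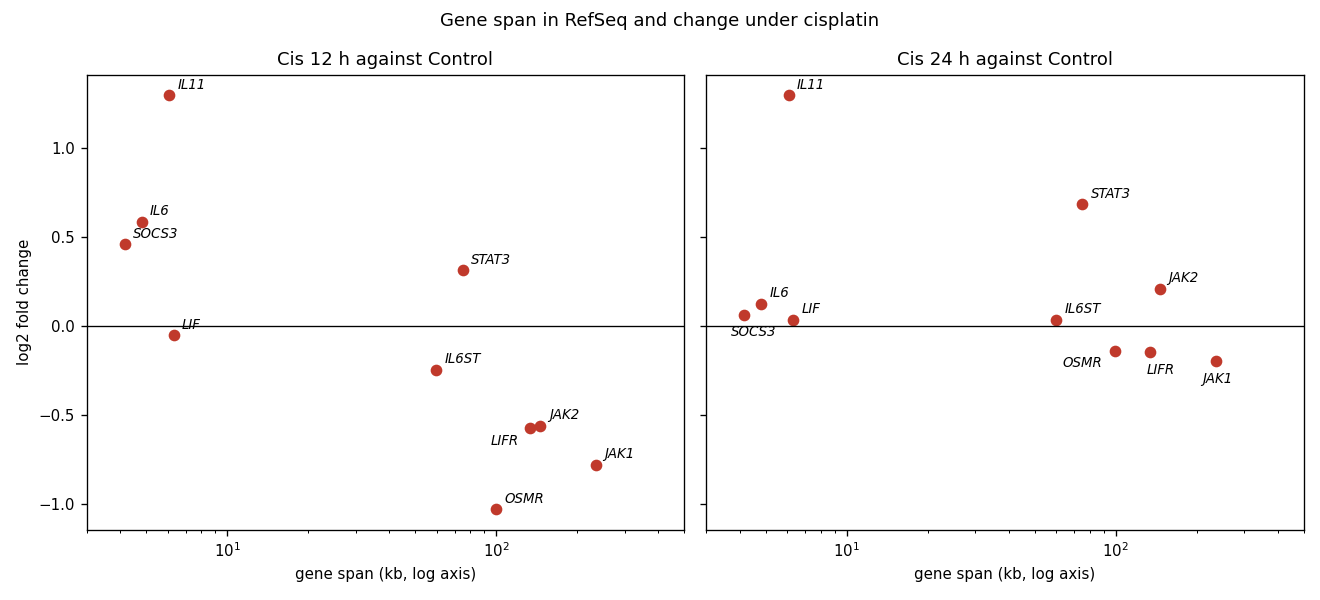
Log2 fold change against Control (vertical axis) by the genomic span of each gene in RefSeq (horizontal axis, kb, log scale) for Cis 12 h (left) and Cis 24 h (right), with 1 point per gene. At 12 h IL11, at 6.08 kb, is highest (1.30) and OSMR, at 99.6 kb, is lowest (−1.03), without an even order by span, since LIF at 6.31 kb lies at −0.05, STAT3 at 75.1 kb at 0.32 and the longer LIFR, JAK2 and JAK1 above OSMR, and at 24 h all genes but IL11 and STAT3 lie within 0.21 of 0.

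Other genes of the pathway were read from lists. Of the other ligands and soluble partners, 5 of 8 listed were measured, and 2 were called up in Cis 12 h and in Cis/TM 12 h and 1 in each of the other 4 comparisons. The shares of all genes called were 25.5% in Cis 12 h, 16.4% in Cis 24 h, 12.1% and 7.72% with TM and 23.8% and 7.02% with both drugs. IL27, which uses IL6ST with its own receptor, rose in all 6 (0.66 to 0.84, with 0.84 in Cis 12 h, SE 0.14, adjusted p = 7.1e-05). The signal of IL27 was low, with means of 4.76 in Control and 5.42 to 5.60 in the treated groups, and no value for background is given. The array medians over all genes ran from 5.71 to 5.94. CTF1, cardiotrophin, rose in Cis 12 h (0.78, SE 0.20, adjusted p = 0.0028) and Cis/TM 12 h (0.61, adjusted p = 0.0151). OSM, the ligand of OSMR, was not called and its differences lay between −0.22 and 0.18. With both drugs at 12 h, median centring took CTF1 (0.50) and IL27 (0.56) under the minimum fold, as the 2 other scalings did for CTF1 (0.37 and 0.35), and removal of the trend did so for CTF1 in Cis 12 h (0.51).

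Of the 7 other receptors and shedding proteases, 3 were called down in Cis 12 h and in Cis/TM 12 h, beside 25.5% and 23.8% of all genes called. In Cis 24 h 1 was called up, beside 16.4%. ADAM10, a protease that cuts IL6R from the cell surface, fell by 1.30 in Cis 12 h (SE 0.09, adjusted p = 2.12e-09) and by 1.05 in Cis/TM 12 h (SE 0.09, adjusted p = 3.84e-08). ADAM17, a protease with the same substrate, fell by 0.97 in Cis 12 h (SE 0.10, adjusted p = 1.48e-07) and by 0.70 in Cis/TM 12 h (SE 0.10, adjusted p = 1.08e-05), and IL31RA fell by 0.69 and 0.64. IL27RA rose in Cis 24 h (0.67, adjusted p = 0.00119), a call lost with median centring (0.58), and ADAM10 was called down there under each of the 3 other scalings (−0.67 to −0.66). IL6R and IL11RA, the receptor subunits that bind IL6 and IL11, were not called, with differences from −0.26 to 0.21 and from −0.12 to 0.31. After 12 h and 24 h of TM, and after 24 h of both drugs, no gene of this list was called, beside 12.1%, 7.72% and 7.02% of all genes.

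Of the other kinases and STATs, 6 of 8 were measured. In Cis 24 h 2 were called up and in Cis/TM 12 h 1, beside 16.4% and 23.8% of all genes called. TYK2, a kinase related to JAK1, rose in Cis 24 h (0.64, SE 0.12, adjusted p = 0.000296), and STAT6 rose in Cis 24 h (0.61, adjusted p = 0.00787) and Cis/TM 12 h (0.68, adjusted p = 0.00238). Those 3 calls were not made with median centring (0.55, 0.52 and 0.57) or with either of the 2 other scalings. Of the other inhibitors and phosphatases 16 of 17 were measured. In Cis 12 h 2 of them were called up and 3 down, beside 25.5% of all genes called. These counts became 1 up and 5 down with median centring and 1 up and 4 down with each of the 2 other scalings. PIAS3, which blocks the binding of STAT3 to DNA, rose by 0.997 in Cis 12 h (SE 0.16, adjusted p = 3.64e-05), by 0.72 in Cis 24 h and by 1.02 with both drugs at 12 h, and its call in Cis 24 h was lost with quantile normalization (0.45) and with the trend removed (0.46). Its relatives PIAS1 and PIAS2 fell in Cis 12 h, by 0.91 and 0.80, and the phosphatase PTPN2 fell by 0.84. SOCS1 and SOCS2, relatives of SOCS3, were not called in any of the 6 comparisons.

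Of 35 listed STAT3 target genes, all measured, 9 were called up and 4 down after 12 h of cisplatin and 7 and 3 after 24 h. TM gave 5 up and 3 down at 12 h and 2 and 2 at 24 h, and both drugs gave 8 and 5 at 12 h and 5 and 2 at 24 h. Of all genes, 25.5% were called in Cis 12 h, 16.4% in Cis 24 h, 12.1% and 7.72% with TM and 23.8% and 7.02% with both drugs. The list's median log2 fold change at 12 h was 0.19 with cisplatin, 0.15 with TM and 0.14 with both drugs, and at 24 h it was 0.01, 0.06 and 0.01, against −0.046 to −0.0022 for all genes. With median centring the split at 12 h was 9 up and 7 down with cisplatin and 6 up and 8 down with both drugs. FOS, an immediate early transcription factor that many stimuli induce, rose in all 6 comparisons, by 2.84 in Cis 12 h (SE 0.21, adjusted p = 1.96e-09). With both drugs the rise of FOS was 2.55 at 12 h and 1.19 at 24 h, and with TM it was 0.99 at 12 h and 0.69 at 24 h, the last being under the minimum fold with the trend removed (0.58). BCL6, a transcriptional repressor, rose in 5 of them, by 1.75 in Cis 12 h (SE 0.16, adjusted p = 2.71e-08). VEGFA, the angiogenic growth factor, fell in all 6, by 0.91 in Cis 12 h (SE 0.12, adjusted p = 4.26e-06) and 0.59 in TM 24 h. HP, haptoglobin, has a near-identical copy, HPR, that shares its sequence, and its signal fell in all 6, by 1.02 in Cis 12 h (SE 0.17, adjusted p = 7.32e-05). The signal of HP was low, with means of 4.14 in Control and 3.12 to 3.38 in the treated groups, no value for background is given, and the call was lost in Cis/TM 12 h with quantile normalization (−0.51) and in TM 12 h with the trend removed (−0.58). With the lowest 25% of genes by mean left out, 9 of the list were called up and 2 down in Cis 12 h. MYC (−0.42 in Cis 12 h) and BIRC5 (0.30), also on the list, were not called there.

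Of 18 listed regulators of IL6 transcription and mRNA, 8 were called up and 1 down after 12 h of cisplatin and 6 up after 24 h. Both drugs gave 8 up at 12 h and 2 up at 24 h, and TM gave 2 up at 12 h and 1 up at 24 h. The shares of all genes called were again 25.5% and 16.4% with cisplatin, 23.8% and 7.02% with both drugs and 12.1% and 7.72% with TM. The list's median was 0.44 in Cis 12 h and 0.44 in Cis 24 h, and lay between 0.20 and 0.28 in the other 4 comparisons, against −0.046 to −0.0022 for all genes. NFKB2, a subunit of NF-kB, rose by 1.09 in Cis 12 h (SE 0.15, adjusted p = 7.6e-06), by 1.58 in Cis 24 h (SE 0.15, adjusted p = 2.55e-07) and by 0.64 in TM 12 h. RELA, another subunit of NF-kB, rose by 1.09 in Cis 12 h (SE 0.11, adjusted p = 9.08e-08) and by 0.84 in Cis 24 h. NFKBIA, the inhibitor that NF-kB induces, rose by 0.99 at 12 h and 1.27 at 24 h with cisplatin, and by 0.87 and 0.92 with both drugs. NFKBIZ, a cofactor of NF-kB at the IL6 gene, rose by 1.23 in Cis 12 h (SE 0.12, adjusted p = 8.39e-08) and by 0.65 in Cis 24 h. With median centring the rise of NFKBIZ in Cis 24 h (0.56) and that of NFKB2 in TM 12 h (0.58) were under the minimum fold, and both were also with the 2 other scalings. Quantile normalization lowered the median of the list to 0.28 in Cis 12 h and 0.19 in Cis 24 h, with 8 and 4 genes called up, and none of the list was called in either TM comparison.

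**Figure D5:**
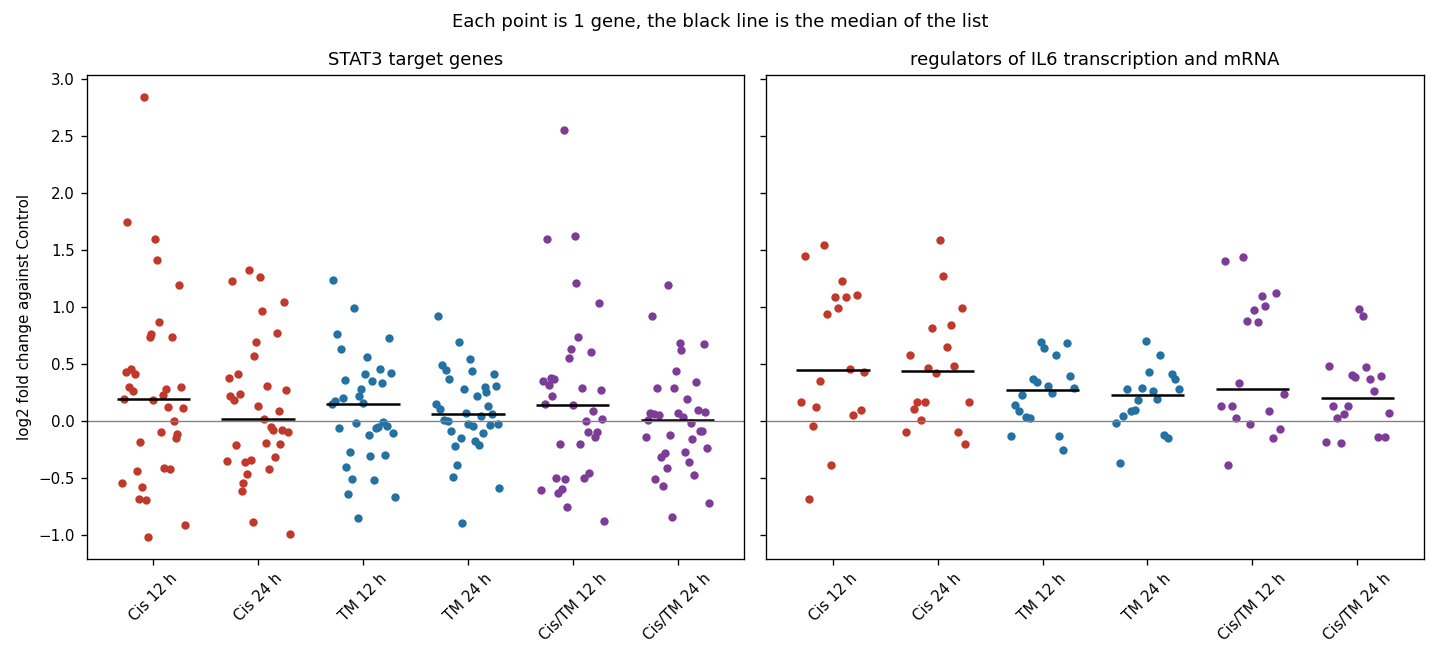
Log2 fold change against Control (vertical axis) of the genes of 2 lists, 35 STAT3 target genes (left) and 18 regulators of IL6 transcription and mRNA (right), with 1 point per gene and a line at the median of the list. The STAT3 targets spread to both sides of 0, with FOS at 2.84 in Cis 12 h, and the median of the IL6 regulators is 0.44 in Cis 12 h and in Cis 24 h.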

How the data were processed

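RNA from 20 samples of MDA-MB-231 cells was measured on Affymetrix Human Gene 1.0 ST arrays. The authors ran RMA (background correction, normalization and summary; version not given) and deposited log2 values for 33297 transcript clusters, which were taken as they are. RMA shrinks differences of dim clusters, and no value for background is given with them. Precision is limited by the number of arrays. The genome build behind the array annotation is not given in the sources used here. Of the clusters, 19460 carry a single symbol, and the cluster with the highest mean over the arrays stood for each of 18417 genes.

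A linear model of 7 group means was fitted over the 20 arrays in limma 3.58.1 (R 4.3.3) with eBayes, leaving 13 residual degrees of freedom, for 17 comparisons. Benjamini-Hochberg adjustment ran over the genes of each comparison. Called genes had a fold change over 1.5 with an adjusted p under 0.05, while the study's methods name p without saying that it was adjusted. The 10 genes and the gene lists were chosen with earlier results of these data known. From each list up to 4 genes are named as the ones called in the most comparisons with Control, ties by adjusted p, and OSM, IL6R, IL11RA, SOCS1, SOCS2, MYC and BIRC5 were added after their values were seen. Alternatives were other scalings (each array centred on its median, quantile normalization, removal of a loess trend with level), other variance models, call rules, filters and clusters, the replicate letter as a block, and leaving out each array. On simulated data with Cis 12 h as the changed group (18417 genes), the model found 93 of 100 genes with a 2-fold and 99 of 100 with a 3-fold change, and made 4 false calls. With TM 12 h and its 2 arrays as the changed group, it found the same numbers and made 9 false calls. Only 100 genes per fold were changed, far fewer than were called in these data, and the noise was drawn independently for each array. Changes near the 1.5-fold limit, where several of the calls lie, were not simulated.

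The arrays were not paired by letter, since no source used here says what the letters stand for. Between groups, the residuals of 57 same-letter pairs correlated by 0.0083 in the median, from −0.42 to 0.61.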

Additional observations from a re-analysis of the deposited data

Results flagged for a closer look

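Between the 2 times of a treatment, and for the departure of the drug pair from additive changes, limma called 12 differences by the same thresholds. Of all genes, 10.6% were called over time with cisplatin, 0.00543% with TM and 13.7% with both drugs. For the departure from additive changes the shares of all genes were 10.3% at 12 h and 16.5% at 24 h. Direct comparisons of one drug with the other or with the pair at the same time are given above. Over time with cisplatin, OSMR was higher at 24 h than at 12 h by 0.892 (log2, adjusted p = 3.51e-06) and JAK2 by 0.769 (adjusted p = 0.0019). Over time with both drugs, OSMR differed by 0.803 (adjusted p = 8.15e-06), IL6 by −0.698 (adjusted p = 0.00491) and SOCS3 by −0.642 (adjusted p = 0.000765). At 12 h the pair of drugs departed from additive log2 changes in IL6ST by 0.65 (adjusted p = 0.0131) and in LIFR by 0.812 (adjusted p = 0.0121). At 24 h it departed in IL11 by −1.2 (adjusted p = 0.00219), in IL6ST by 0.69 (adjusted p = 0.00312), in LIFR by 0.642 (adjusted p = 0.0193), in STAT3 by −0.788 (adjusted p = 0.00577) and in SOCS3 by −0.61 (adjusted p = 0.0214).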

How the results depend on the processing

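Over 170 pairs of gene and comparison, 2561 of 2790 values under alternative settings kept their direction and their side of the thresholds. Of the others, 84 values without a call in either fit changed sign, 65 lost a call and 80 gained one. None of the called values changed direction. The 2790 values include those under looser call rules, which could not lose a call. They also include those under cluster and filter settings, which left the log2 values of these genes unchanged. With no minimum fold the genes called numbered, against Control, 7 in Cis 12 h, 5 and 4 after 12 and 24 h of TM, and 6 and 2 after 12 and 24 h of both drugs. Of all genes, 47.3%, 25.7%, 21.3%, 46.4% and 19.4% were called by that rule in these comparisons. The genes numbered 5 (12 h) and 3 (24 h) for both drugs against TM, 3 for cisplatin against TM at 24 h, and 5 between the times of cisplatin and 5 between those of both drugs, beside 22%, 13.5%, 17.8%, 22.1% and 27.3% of all genes. With quantile normalization they numbered 1 after 24 h of cisplatin and 2 and 1 after 12 and 24 h of TM, against Control, and 0 for cisplatin against TM at 24 h. Removing the trend with level gave 1, 2, 1 and 0 in the same comparisons and 0 after 24 h of both drugs. Median centring gave 2 and 1 after 12 and 24 h of TM. Fitting only the groups compared gave 0 and 0 there, 0 after 24 h of both drugs, and 1 for both drugs against cisplatin at 24 h, where an unadjusted p also gave 1. The cause of these shifts was not tested.

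Leaving out each array in turn gave, against Control, 3 to 6 genes at 12 h and 1 to 2 at 24 h of cisplatin, 0 to 3 and 0 to 2 of TM, and 2 to 3 and 0 to 1 of both drugs. Against TM it gave 2 to 4 at 12 h and 1 to 2 at 24 h for both drugs, and 3 to 5 and 0 to 1 for cisplatin. It gave 0 to 1 for both drugs against cisplatin at 24 h, 1 to 4 between the times of cisplatin, 2 to 4 between those of both drugs, 0 to 5 for the interaction at 12 h and 2 to 5 for that at 24 h. Where a TM 12 h array is left out, the lone array is assumed to vary like the other groups.

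The meaning of the replicate letters is not given, and the main fit did not pair the arrays by them. With the letter as a block the count in Cis 12 h against Control was again 4, and 1 call was lost, LIF in Cis 12 h against TM 12 h (−0.55, adjusted p = 0.0267).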
